A study of Mus musculus with 18 samples.

Results

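Lysosomal cathepsins are the proteases that break down proteins in the acid interior of lysosomes and endosomes. The 8 of them listed for description, Ctss, Ctsb, Ctsl, Ctsh, Ctsc, Ctsz, Ctsd and Ctsa, were taken by name from the table of 23899 genes, and granule cathepsin G was left out of the set. The list was chosen with earlier results of these data known, so shares over all genes are printed beside its counts only for description. All 8 are in the table, and all 8 are among the 11550 genes tested, whose FPKM averages 1 or more across 18 libraries. FPKM is a read count scaled by transcript length and by library depth, so levels of different genes can be compared.

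The cells were mouse MLL-AF9 cas9 leukaemia cells from a primary leukaemia, which carry the MLL-AF9 fusion oncogene and the Cas9 nuclease. Every group was grown in RPMI with 10% serum and 10 ng/ml mIL3, the mouse form of a growth factor for early myeloid cells. Guides e12.3 and e12.4, and likewise e20.1 and e21.1, are RNAs that direct Cas9 to Jmjd1c, which encodes a nuclear protein of the jumonji histone demethylase family. The 2 control groups were Renilla, a guide to a luciferase that mouse cells lack, and mock, and each of the 6 groups had 3 poly(A) RNA libraries. The labels say that jumonji and zinc finger domains were targeted, but not which guide targets which domain. Nor do they say what mock received, or whether replicates came from different cultures, and a p-value here therefore reflects only how these libraries vary. No cell line clone, animal age or strain is given in the labels.

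Cathepsins are made as inactive precursors, carried to the lysosome and activated there by cleavage. Most are cysteine proteases (Ctss, Ctsb, Ctsl, Ctsh, Ctsc and Ctsz), whereas Ctsd is an aspartic protease and Ctsa a serine carboxypeptidase. In myeloid cells they digest engulfed material, trim the invariant chain that guards MHC class II molecules and, in the case of Ctsc, activate the serine proteases of granules. Cystatins and stefins are their protein inhibitors.

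Estimated depth was 20.7 to 182.0 M reads a library (median 32.1 M), so that 1 FPKM of a 1000-base transcript stood for about 20.7 to 182.0 reads. The targeted gene itself, Jmjd1c, was at 64.1 ± 9.24 FPKM with the 4 guides (SD, n = 12), against a mean of 78.3 FPKM in Renilla (64.2 to 85.4, n = 3) and 74.5 ± 2.69 FPKM in mock (n = 3). Its log2 fold change to Renilla was -0.29 (SE 0.13, limma adjusted p = 0.19), and transcript level does not measure editing. Replicate 3 of e12.3 and replicate 3 of e21.1 stood apart from the other 16 libraries, at -41.1 and -49.9 on principal component 2 (21.9% of variance), where all others were above 0. Mpo, the granule enzyme myeloperoxidase, was at 1024.6 and 664.2 FPKM in these libraries, against 145.6 to 384.4 FPKM in the others of their groups. They also had the highest estimated depth of the guide libraries, at 67.0 and 75.3 M reads against 22.8 to 43.4 M in the rest. The part of depth in how they differ was not tested. Markers of the labelled cell were expressed in every group, with Hoxa9 at 92.4 ± 10.9 FPKM under the 4 guides, 90.6 ± 23.3 in Renilla and 90.7 ± 5.75 in mock.

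All 8 cathepsins rose with the 4 Jmjd1c guides together relative to Renilla. Ctss rose most, 12.7-fold in mean FPKM, then Ctsc (2.07-fold), Ctsh (1.86-fold), Ctsd and Ctsl (1.49-fold each), Ctsb (1.41-fold), Ctsz (1.33-fold) and Ctsa (1.28-fold). Over all tested genes 7.77% were called higher in this comparison, and 11.0% in either direction. A gene counts as called, and is said to rise or fall, where limma's adjusted p over all 11550 genes is under 0.05. The median log2 fold change of the 8 cathepsins was 0.56, and that of all tested genes was -0.03. Fold changes on the log2 scale are of FPKM + 1, which understates changes of genes near 1 FPKM. Without the 2 libraries that stand apart, all 8 were still called, with log2 fold changes from 0.38 (Ctsa) to 3.37 (Ctss). Of the 11550 tested genes 1268 were then called higher. In 6 of 8 members every guide library lay above every Renilla library, which was so for 6.26% of tested genes, and the exceptions were Ctsh and Ctsz. With mock added to the controls the count was 5 of 8, without Ctsa as well, against 4.92% of tested genes.

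**Figure D1:**
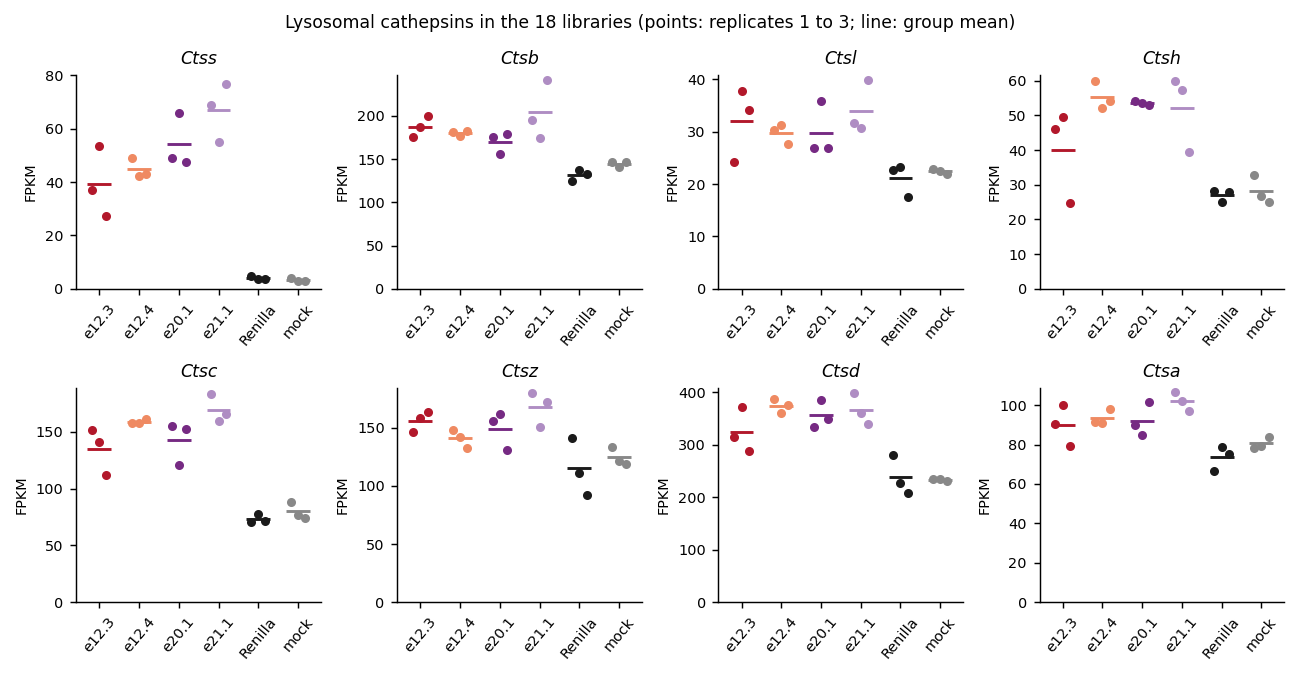
FPKM of each cathepsin in the 18 libraries, with 1 panel for each gene, groups along the x axis, a point for each replicate and a line at each group mean. Ctss lies between 27.3 and 76.6 FPKM with the Jmjd1c guides and between 2.91 and 4.97 FPKM in the controls, and the other 7 genes show smaller steps in the same direction.

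Ctss encodes cathepsin S, an endopeptidase of monocytes, macrophages and dendritic cells that stays active at neutral pH and makes the last cut of the invariant chain. The gene lies at chr3:95526786-95556403 on the plus strand of GRCm38 (mm10). The e12.3 libraries read 37.0, 53.7 and 27.3 FPKM of Ctss, and the e12.4 libraries 49.1, 42.4 and 43.0. The e20.1 libraries read 49.2, 66.0 and 47.4 FPKM, and the e21.1 libraries 69.0, 54.9 and 76.6. Against these stood 4.97, 3.57 and 3.58 FPKM in Renilla and 4.02, 3.11 and 2.91 FPKM in mock. The lowest guide library, e12.3 replicate 3, was thus still above every control library. The log2 fold change was 3.34 for the 4 guides against Renilla (SE 0.16, limma adjusted p = 1.9e-08), the largest of all 11550 tested genes in that comparison. Against mock it was 3.55 (SE 0.16, limma adjusted p = 7.8e-09). That rank depends on the comparison: Ctss ranked 2 against mock, 6 with e12.3, 3 with e12.4, 3 with e20.1 and 1 with e21.1. Without the 2 libraries that stand apart, Wfdc17 exceeded Ctss against Renilla (3.48 and 3.37). Over all 30 alternative settings of the comparison with Renilla, the log2 fold change of Ctss ranged from 3.2 to 3.6.

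Because Ctss had by far the largest change among the cathepsins, the promoter window around its start is shown. It runs from 250 bases before to 50 bases after the annotated start, chr3:95526536-95526835, plus strand, from RefSeq on GRCm38.p6. Capitals mark GAAACCGAAA, which has the interferon-response-like pattern of GAAA, any 2 bases and GAAA, and ACTTCCTC, the reverse complement of GAGGAAGT, a motif like that bound by the myeloid factor PU.1.
Ctss: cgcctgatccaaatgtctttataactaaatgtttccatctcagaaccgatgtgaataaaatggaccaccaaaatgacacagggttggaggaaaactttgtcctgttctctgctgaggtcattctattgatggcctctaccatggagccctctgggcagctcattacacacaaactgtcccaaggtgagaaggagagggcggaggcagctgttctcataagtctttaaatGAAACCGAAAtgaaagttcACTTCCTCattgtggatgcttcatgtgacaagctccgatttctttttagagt
The first match begins 21 bases before the start and the other 2 bases before it. On either strand, the interferon-response-like pattern occurs in 3.44% and GAGGAAGT in 3.2% of all 32851 windows of this length in the same table. The motifs were chosen with these sequences in view, and a match describes letters, not binding.

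Ctsl encodes cathepsin L, another endopeptidase, found in lysosomes of most cells. In e12.3 the libraries read 24.3, 37.7 and 34.2 FPKM of Ctsl, those of e12.4 30.3, 31.3 and 27.7, those of e20.1 26.8, 35.8 and 26.9 and those of e21.1 31.6, 30.7 and 39.8. Renilla libraries had 22.6, 23.3 and 17.5 FPKM, and mock libraries 22.9, 22.5 and 21.9 FPKM. No guide library overlapped a control library, although the lowest guide value (24.3) and the highest Renilla value (23.3) were close. To Renilla, the log2 fold change of Ctsl was 0.55 (SE 0.13, limma adjusted p = 0.0096), and without Renilla replicate 3 the call was lost at 0.42 (limma adjusted p = 0.083). Against mock the log2 fold change of Ctsl was 0.46 (SE 0.13, limma adjusted p = 0.033), and leaving out any 1 mock library lost that call.

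Ctsb encodes cathepsin B, which cuts inside proteins and also removes dipeptides from their ends. Replicates of e12.3 read 175.7, 186.8 and 199.3 FPKM of Ctsb, those of e12.4 181.6, 176.2 and 182.6, those of e20.1 175.4, 156.3 and 178.7 and those of e21.1 195.2, 174.6 and 241.8. Its Renilla values were 125.1, 136.8 and 132.7 FPKM, and its mock values 146.2, 141.1 and 146.4 FPKM. Guide and control libraries did not overlap, and mock lay a little above Renilla without a called difference (log2 fold change of Renilla against mock -0.14, 95% interval -0.35 to 0.08). Relative to Renilla the log2 fold change of Ctsb was 0.48 (SE 0.08, limma adjusted p = 0.00078), and relative to mock 0.35 (SE 0.08, limma adjusted p = 0.011). The call against mock was lost when any 1 of the 3 mock libraries was left out (limma adjusted p = 0.051 to 0.076).

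Ctsh encodes cathepsin H, which removes single amino acids from the front of proteins. The 3 e12.3 libraries read 46.2, 49.4 and 24.7 FPKM of Ctsh, and those of e12.4 59.8, 52.1 and 54.2. Those of e20.1 read 54.0, 53.6 and 52.9 FPKM, and those of e21.1 60.0, 57.2 and 39.5. Renilla stood at 28.2, 24.9 and 28.0 FPKM and mock at 32.7, 26.7 and 25.0. Ctsh was the member in which the 2 libraries that stand apart differed most from their groups on the negative side. Replicate 3 of e12.3 was 0.92 log2 units below the mean of the other 2 libraries and under every control library (24.9 to 32.7 FPKM), and replicate 3 of e21.1 fell short by 0.55. The log2 fold change of Ctsh to Renilla was 0.84 (SE 0.16, limma adjusted p = 0.0027) with these libraries and 0.97 (limma adjusted p = 8.8e-07) without them.

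Ctsc encodes cathepsin C, a dipeptidyl peptidase that activates neutrophil elastase, proteinase 3 and cathepsin G in granules. Libraries of e12.3 read 151.6, 141.5 and 111.9 FPKM of Ctsc, those of e12.4 157.6, 158.1 and 161.8, those of e20.1 154.8, 121.1 and 152.5 and those of e21.1 183.2, 159.4 and 165.5. They were 70.5, 77.5 and 71.2 FPKM in Renilla and 88.1, 77.0 and 74.6 in mock. The lowest guide library lay well above the highest control library. Ctsc rose by 1.03 log2 units relative to Renilla (SE 0.09, limma adjusted p = 2.7e-06) and 0.91 relative to mock (SE 0.09, limma adjusted p = 9.5e-06).

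Ctsz encodes cathepsin Z, also named X, a carboxypeptidase. In e12.3 the libraries read 146.2, 158.4 and 163.4 FPKM of Ctsz, those of e12.4 147.8, 141.8 and 133.0, those of e20.1 155.7, 161.5 and 131.0 and those of e21.1 180.0, 151.1 and 172.5. Renilla had 141.3, 111.5 and 92.2 FPKM and mock 133.7, 121.3 and 118.8. The guide range of 131.0 to 180.0 FPKM overlapped that of both controls, and the Renilla libraries were wide apart. To Renilla, the log2 fold change of Ctsz was 0.43 (SE 0.10, limma adjusted p = 0.012), which lost its call without Renilla replicate 2 (limma adjusted p = 0.062) or without replicate 3 (0.28, limma adjusted p = 0.11). Against mock Ctsz had a log2 fold change of 0.29 and was not called (SE 0.10, limma adjusted p = 0.095).

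Ctsd encodes cathepsin D, the aspartic endopeptidase that does much of the bulk digestion in lysosomes. Replicates of e12.3 read 314.3, 371.6 and 288.2 FPKM of Ctsd, those of e12.4 386.3, 359.6 and 375.5, those of e20.1 334.7, 385.4 and 349.9 and those of e21.1 398.9, 360.1 and 339.1. In Renilla it was at 280.5, 227.8 and 207.3 FPKM, and in mock at 235.7, 234.7 and 230.1. The lowest guide library (288.2) was just above the highest Renilla library (280.5). Its log2 fold change was 0.58 to Renilla (SE 0.09, limma adjusted p = 0.00053) and 0.60 to mock (SE 0.09, limma adjusted p = 0.00041).

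Ctsa encodes cathepsin A, a carboxypeptidase that also protects the glycosidases beta-galactosidase and neuraminidase 1 inside lysosomes. The 3 e12.3 libraries read 90.5, 100.2 and 79.4 FPKM of Ctsa, those of e12.4 91.3, 91.1 and 97.9, those of e20.1 89.8, 84.7 and 101.4 and those of e21.1 106.8, 102.0 and 97.1. They were 66.7, 78.8 and 75.0 FPKM in Renilla and 78.5, 79.1 and 84.1 in mock. Guide libraries lay above Renilla but overlapped mock. Relative to Renilla the log2 fold change of Ctsa was 0.35 (SE 0.08, limma adjusted p = 0.0061), and without Renilla replicate 1 the call was lost at 0.29 (limma adjusted p = 0.056). Relative to mock it was 0.22 and not called (SE 0.08, limma adjusted p = 0.090), but it was called at 0.25 without the 2 libraries that stand apart (limma adjusted p = 0.022). The genes for its partner enzymes were not called, with log2 fold changes to Renilla of 0.16 for Glb1 (limma adjusted p = 0.39) and 0.01 for Neu1 (limma adjusted p = 0.97), both named after their values were seen.

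The other members lie, on GRCm38, at chr14:63122462-63145923 (Ctsb), chr13:64359337-64370890 (Ctsl, minus strand), chr9:90054152-90076089 (Ctsh), chr7:88278085-88310888 (Ctsc), chr2:174427493-174439039 (Ctsz, minus strand), chr7:142375911-142388038 (Ctsd, minus strand) and chr2:164832873-164841032 (Ctsa). Some members share exonic bases with other annotated genes in GENCODE vM21, and the sources used here do not state whether quantification used strand. Ctsd shares 808 exonic bases with Gm49369 on the same strand, a gene at a mean of 17.1 FPKM, so reads there cannot be told apart. On the opposite strand, Ctsb shares 774 bases with Fdft1 (35.3 FPKM), and Ctsa shares 324 with Neurl2 (1.46 FPKM) and 495 with Pltp (0.053 FPKM). Ctsl overlaps the antisense gene Gm47123 over 1742 bases and the pseudogene Gm49230 over 395, and Ctsz shares 10 bases with Nelfcd.

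**Figure D2:**
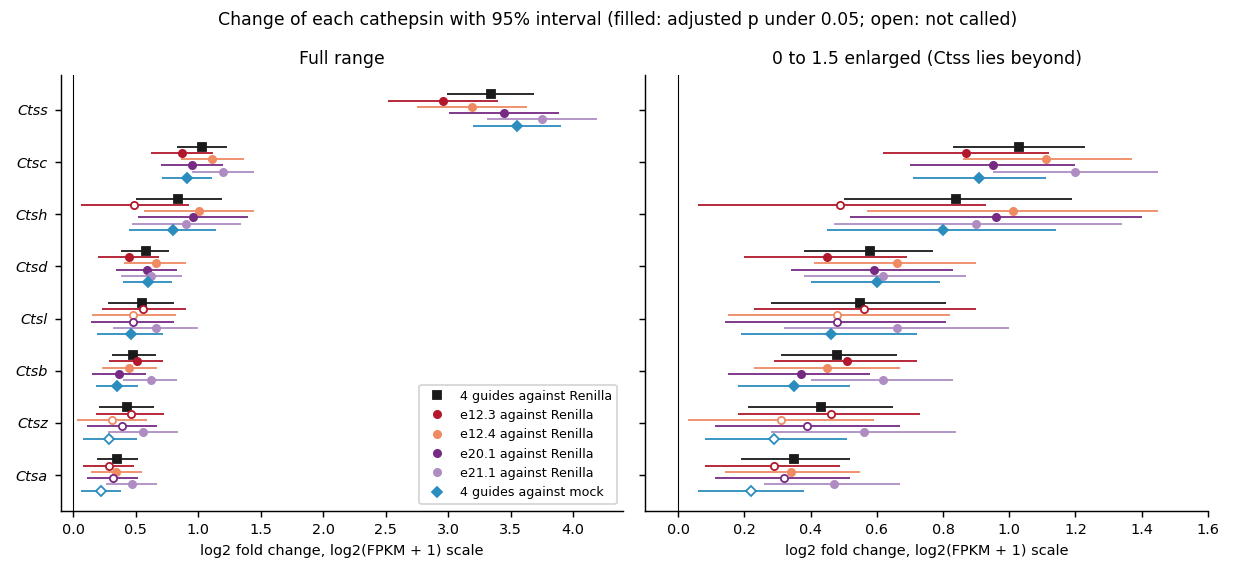
Log2 fold change of each cathepsin on the log2(FPKM + 1) scale with its 95% interval, for the 4 guides together and each guide against Renilla and for the 4 guides against mock, over the full range (left) and enlarged (right). Every estimate lies above 0, from 0.22 (Ctsa, against mock) to 3.75 (Ctss, e21.1), and open symbols mark those not called.

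Each guide was also set against Renilla by itself, and these 4 comparisons share the 3 Renilla libraries. Guide e21.1 had all 8 cathepsins called higher, where 7.06% of tested genes were. Guide e12.4 had 6 (5.57% of tested genes), without Ctsl and Ctsz. Guide e20.1 had 5 (4.61%), missing Ctsl, Ctsz and Ctsa, and e12.3 had 4 (3.03%), namely Ctss, Ctsb, Ctsd and Ctsc. Ctss, Ctsc, Ctsd and Ctsb were called with each guide, Ctsd with e12.3 at a limma adjusted p of 0.048 and Ctsb with e20.1 at 0.047. These last 2 calls, and that of Ctsa with e12.4 (limma adjusted p = 0.042), were lost under most alternatives. With e21.1, Ctsl and Ctsz lost their calls without Renilla replicate 3 (0.54, limma adjusted p = 0.070, and 0.41, limma adjusted p = 0.057), and Ctsl also without e21.1 replicate 3 (0.55, limma adjusted p = 0.071). Ctss had log2 fold changes of 2.96 with e12.3, 3.19 with e12.4, 3.45 with e20.1 and 3.75 with e21.1, all with an SE of 0.21. Those of Ctsc were 0.87, 1.11, 0.95 and 1.20 in the same order, with an SE of 0.12. Ctsh had 1.01 with e12.4, 0.96 with e20.1 and 0.90 with e21.1, all called, and 0.49 with e12.3 (SE 0.21, limma adjusted p = 0.30). Without e12.3 replicate 3 the last value was 0.80 and called (limma adjusted p = 0.0061). When the spread was estimated only from the 6 libraries compared, the counts were 1 with e12.3 (Ctss), 3 with e20.1 and 3 with e21.1, in both cases Ctss, Ctsc and Ctsh. Of all 11550 tested genes, 77 were then called higher with e12.3, 390 with e20.1 and 312 with e21.1. With e12.4 only Ctsa lost its call, and 859 genes were called higher.

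With the 4 guides together against mock, 6 of 8 cathepsins were called higher, and 6.84% of tested genes were. Ctsz and Ctsa were the 2 that were not. Renilla against mock gave no called cathepsin, and 0.0% of tested genes were called. An unadjusted limma p under 0.05 was reached by 127 genes (1.1% of those tested), none of them a cathepsin. In that comparison the log2 fold changes of the members were between -0.14 (Ctsb) and 0.21 (Ctss, 95% interval -0.23 to 0.65).

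Differences between guides were tested directly in 3 comparisons, and in each of them limma called 0 of 8 cathepsins and 0.0% of tested genes. An unadjusted p under 0.05 was reached by 179 genes (1.55% of those tested) for e20.1 and e21.1 against e12.3 and e12.4. The number was 414 (3.58%) for e12.4 against e12.3 and 417 (3.61%) for e21.1 against e20.1. Each of these 3 sets held 1 cathepsin. Ctss averaged 60.5 ± 11.8 FPKM with e20.1 and e21.1 and 42.1 ± 9.27 FPKM with e12.3 and e12.4 (SD, n = 6 each). That is a log2 difference of 0.52 (95% interval 0.21 to 0.83, limma unadjusted p = 0.0027, adjusted p = 1), and the ranges overlapped. Between the same groups the other 7 members differed by 0.01 (Ctsb, 95% interval -0.14 to 0.17) to 0.18 log2 units (Ctsh, -0.13 to 0.49). Ctsh was higher with e12.4 than with e12.3 by 0.51 (95% interval 0.08 to 0.95, limma adjusted p = 0.90), and by 0.21 without e12.3 replicate 3. Ctsb with e21.1 exceeded e20.1 by 0.25 (95% interval 0.03 to 0.47, limma adjusted p = 0.88), and by 0.12 without e21.1 replicate 3.

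By group means the order of Ctss was e21.1, e20.1, e12.4, e12.3, Renilla and mock, and the ranges of neighbours overlapped everywhere except between e12.3 and Renilla. For Ctsc, Ctsl, Ctsd and Ctsb the step between the lowest guide and the highest control was likewise free of overlap. Ctsc libraries with e12.4 (157.6 to 161.8 FPKM) also lay above those with e20.1, and Ctsb in mock above Renilla. Guide e21.1 had the highest mean of Ctss, Ctsb, Ctsl, Ctsc, Ctsz and Ctsa, and e12.4 that of Ctsd and Ctsh. In Ctsh, Ctsz and Ctsa neighbouring groups overlapped at every step.

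The summed level of the 8 cathepsins was 1073.2 ± 77.3 FPKM with the 4 guides (n = 12), against 683.9 ± 56.2 in Renilla and 717.0 ± 21.4 FPKM in mock (n = 3 each). Single libraries ranged from 928.4 to 1224.6 FPKM with guides, 627.5 to 739.9 in Renilla and 703.7 to 741.6 in mock, so that every guide library was above every control library. Ctss made up 4.73 ± 1.03% of that sum with guides, 0.588 ± 0.0766% in Renilla and 0.466 ± 0.0674% in mock. Ctsc took 14.1 ± 1.29% with guides, 10.7 ± 1.05% in Renilla and 11.1 ± 0.664% in mock. Ctsd took 33.1 ± 1.97% with guides, 34.7 ± 2.74% in Renilla and 32.6 ± 0.751% in mock. Mean shares of Ctsz, Ctsb and Ctsa were lower with guides than in both controls, although the genes themselves rose against Renilla. Ctsz took 14.3 ± 1.38% with guides, 16.7 ± 2.23% in Renilla and 17.4 ± 0.588% in mock. Ctsb took 17.3 ± 1.92% with guides, 19.4 ± 2.19% in Renilla and 20.2 ± 0.565% in mock. Ctsa took 8.80 ± 0.514% with guides, 10.8 ± 1.58% in Renilla and 11.2 ± 0.685% in mock. Guide and Renilla ranges overlapped for all 3, and those of guides and mock for Ctsz and Ctsb but not for Ctsa (7.96 to 9.74% with guides, 10.6 to 11.9% in mock).

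Ctsd had the highest FPKM of the 8 in every library, followed by Ctsb in group means. In Renilla and mock the order went on with Ctsz, Ctsa, Ctsc, Ctsh and Ctsl, and Ctss was lowest in every library. With the guides Ctss stood beside Ctsh, above it in 5 of 12 libraries, and Ctsc stood beside Ctsz, below it in 5 of 12. Ctsl was then the lowest in group mean, below Ctsh in 10 of 12 libraries.

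**Figure D3:**
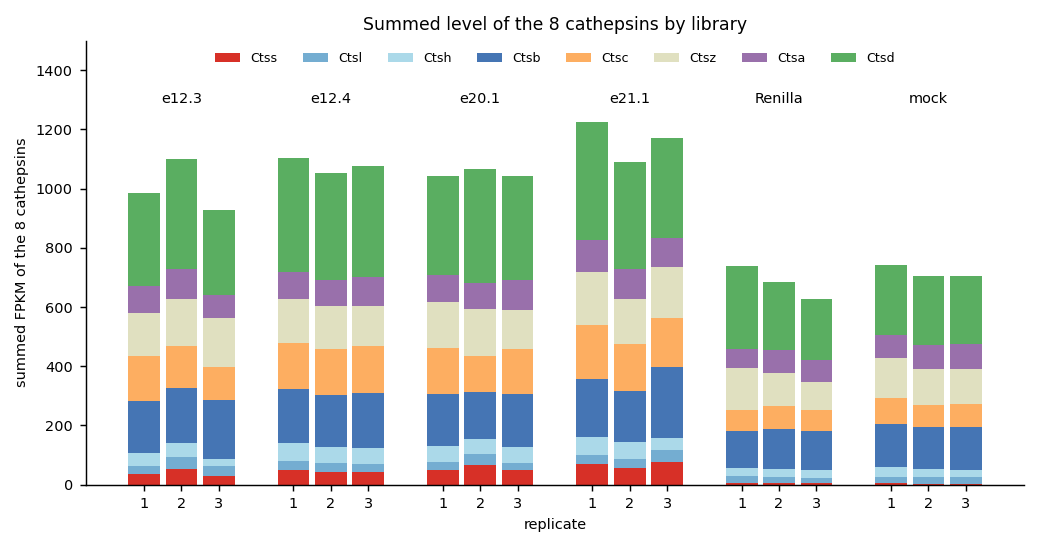
Summed FPKM of the 8 cathepsins in each of the 18 libraries, stacked by gene, with groups from left to right. Guide libraries reach 928.4 to 1224.6 FPKM and control libraries 627.5 to 741.6 FPKM, and the Ctss layer is visible mainly in the guide libraries.

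Likeness between genes was measured over the 18 libraries as the mean absolute difference of log2(FPKM + 1) after each gene's own mean was subtracted. Of 8469 other genes averaging 5 FPKM or more, those closest to Ctss were Lsp1 (0.232), Wfdc17 (0.255), Lilra6 (0.310), Ccl3 (0.330) and Slfn2 (0.412 log2 units). Lilra6 belongs to a family of near-identical genes, so its value is uncertain. Lsp1, an actin-binding protein of leukocytes, was at 46.1 ± 12 FPKM with guides, 4.70 ± 0.638 in Renilla and 3.38 ± 0.291 in mock. Slfn2, a Schlafen family gene, was at 32.0 ± 7.84 FPKM with guides, 4.98 ± 0.433 in Renilla and 4.21 ± 0.159 in mock. The nearest cathepsin to Ctss was Ctsc, much farther away at 1.10. Among the other members, Ctsb and Ctsa were each other's nearest (0.104), as were Ctsh and Ctsc (0.156), while Ctsz and Ctsl were nearest to Ctsb (0.128 and 0.131) and Ctsd to Ctsz (0.164). The points share their libraries and the same step between guides and controls, so likeness here is a description.

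**Figure D4:**
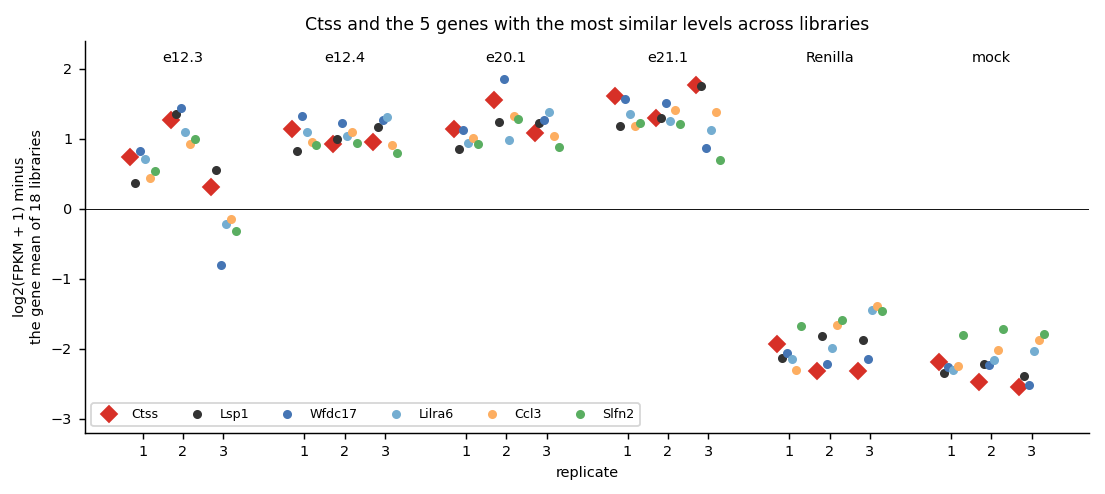
Log2(FPKM + 1) of Ctss and of the 5 genes closest to it, each minus its own mean over the 18 libraries, by library. Apart from e12.3 replicate 3, where Wfdc17, Lilra6, Ccl3 and Slfn2 fall below 0 and Ctss and Lsp1 do not, every guide library is above 0 and every control library below.

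In the 2 libraries that stand apart, members moved unequally. Ctsb was higher there than in both other libraries of its group with e12.3 (199.3 FPKM) and with e21.1 (241.8). Ctsd, Ctsh and Ctsa were lower than both others in both groups. Ctss was below both others with e12.3 (27.3 FPKM) and above both with e21.1 (76.6). Summed progenitor and leukaemia markers, 9 of 9 in the table, were at 4670.0 and 3741.6 FPKM in these libraries, where the 12 guide libraries had a median of 2342.8 FPKM. That sum is mostly the granule genes Mpo, Elane and Prtn3. Kit was lower there, at 24.7 and 17.7 FPKM against a mean of 35.2 over the 12 guide libraries, as were Myb (144.0 and 109.6 against 195.6) and Cd34 (80.1 and 134.2 against 216.4). Summed neutrophil markers were at 956.2 and 676.9 FPKM there, against a guide median of 311.3. The part of these markers in the levels of the cathepsins was not tested.

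Other cathepsins were measured in the same table. Ctse, an aspartic protease of endosomes, rose with guides to 17.9 ± 3.20 FPKM against 8.46 ± 0.467 in Renilla (n = 12 and 3), by 0.98 log2 units (SE 0.12, limma adjusted p = 5.1e-05). Ctso, a cysteine cathepsin, rose to 6.40 ± 0.909 FPKM against 4.04 ± 0.634 in Renilla, by 0.55 log2 units (SE 0.12, limma adjusted p = 0.0056). Ctsg, the serine protease cathepsin G of primary granules, fell to 437.0 ± 122.1 FPKM against 869.1 ± 130.6 in Renilla, at a log2 fold change of -1.03 in the fit (SE 0.18, limma adjusted p = 0.0015). Ctsw, Ctsk and Ctsf averaged under the 1 FPKM limit and were not tested, at most 0.532, 0.245 and 0.0172 FPKM in any library.

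Where Ctsc rose, some of the granule proteases that it activates fell. Of 7 such proteases listed, 5 were in the table and 4 tested, and 2 of these were called lower, Ctsg and Prtn3 (proteinase 3, log2 fold change -0.58, SE 0.16, limma adjusted p = 0.027). Over all tested genes 3.21% (371) were called lower, but 135 without Renilla replicate 1, 195 without Renilla replicate 2 and 817 without the 2 libraries that stand apart. Elane, neutrophil elastase, was at 792.0 ± 464.6 FPKM with guides and 1162.7 ± 158.2 in Renilla, and was not called (log2 fold change -0.70, limma adjusted p = 0.19). Its value was 2012.1 FPKM in replicate 3 of e12.3 and 1439.8 in that of e21.1, while the other 10 guide libraries ran from 461.5 to 861.8 FPKM. Without those 2 libraries Elane had a log2 fold change of -0.97 and was called (limma adjusted p = 6.9e-05), as was Mcpt8, a protease of basophils, at -0.84 (limma adjusted p = 0.0097). The call of Prtn3 was lost without any 1 of the Renilla libraries (limma adjusted p = 0.081 to 0.10).

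Of 11 cystatins and stefins, 9 were tested and 2 rose, where 7.77% of all tested genes were called higher. Cst7, cystatin F, which is sent to lysosomes and inhibits cathepsin C, was at 177.5 ± 28.1 FPKM with guides and 103.1 ± 6.26 in Renilla (log2 fold change 0.76, SE 0.13, limma adjusted p = 0.00088). Cst3, the secreted cystatin C, was at 441.1 ± 91.8 FPKM with guides and 267.1 ± 21.7 in Renilla (0.69, SE 0.16, limma adjusted p = 0.0084), and its call was lost without Renilla replicate 3 (limma adjusted p = 0.051). Cstb had a log2 fold change of 0.33 (limma adjusted p = 0.058) and BC100530, a stefin gene, 0.55 (limma adjusted p = 0.32). Stefin genes of this cluster are close copies between which reads are hard to assign. Summed FPKM of the 6 cysteine cathepsins divided by that of the 11 inhibitors had a median of 0.389 with guides (0.209 to 0.707), 0.340 in Renilla (0.277 to 0.365) and 0.373 in mock (0.343 to 0.423), so the ranges overlapped.

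Of 11 tested genes for cathepsin maturation and lysosomal sorting, 3 rose and none fell, with a list median of 0.02. The share of all tested genes called higher was 7.77%. Furin, a convertase of the Golgi, was at 34.8 ± 4.61 FPKM with guides and 19.4 ± 0.591 in Renilla (log2 fold change 0.80, SE 0.09, limma adjusted p = 1.5e-05). Lgmn, legumain, which cleaves cathepsins to their mature chains, was at 1.38 ± 0.660 FPKM with guides and 0.290 ± 0.0875 in Renilla (0.85, SE 0.17, limma adjusted p = 0.0032), and passed the filter on low values only through the guide libraries. With Lgmn in it, the count of 3 is no result to set against the share of all tested genes. Psap, the precursor of saposins, was at 237.4 ± 73.9 FPKM with guides and 135.0 ± 8.32 in Renilla (0.77, SE 0.17, limma adjusted p = 0.0089), and lost its call without Renilla replicate 2 (limma adjusted p = 0.052). Gga2, a sorting adaptor, had a log2 fold change of -0.30 (limma adjusted p = 0.086).

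Of 9 genes of MHC class II processing 5 were tested and called higher, while the other 4 were under the filter on low values. Cd74, at 7.36 ± 3.70 FPKM with guides, 0.945 ± 0.469 in Renilla and 0.438 ± 0.129 in mock, passed the filter only through the guide libraries, so the share of tested genes called is no result for this list. The 5 hold the chaperone genes H2-DMa (log2 fold change 0.72, limma adjusted p = 0.00061), H2-DMb2 (0.63, limma adjusted p = 0.016) and H2-DMb1 (0.46, limma adjusted p = 0.031). The fifth was Ifi30, a thiol reductase of the same compartment (0.37, limma adjusted p = 0.040), named after its value was seen. Cd74 encodes the invariant chain that cathepsin S cuts. Libraries of e12.3 read 5.06, 11.0 and 0.437 FPKM of Cd74, those of e12.4 7.80, 7.94 and 7.29, those of e20.1 6.46, 11.3 and 9.64 and those of e21.1 10.9, 9.78 and 0.744. Renilla libraries had 1.43, 0.489 and 0.919 FPKM of Cd74, and mock libraries 0.491, 0.531 and 0.291. In the 2 libraries that stand apart Cd74 was thus in the range of the controls while Ctss was at 27.3 and 76.6 FPKM. The log2 fold change of Cd74 was 1.88 to Renilla (SE 0.53, limma adjusted p = 0.032), and 2.32 without those libraries (limma adjusted p = 1.7e-06). Leaving out any 1 Renilla library lost the call of Cd74 (limma adjusted p = 0.078 to 0.14) and of H2-DMb1 (0.091 to 0.11), and that of H2-DMb2 was lost without Renilla replicate 2 (limma adjusted p = 0.13). The MHC class II chains and Ciita, their master regulator, were not tested, with means over the 18 libraries of 0.483 FPKM (H2-Ab1), 0.169 (H2-Aa), 0.0276 (H2-Eb1) and 0.0328 (Ciita).

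Of 35 other lysosomal hydrolases 34 were tested, 12 rose and none fell, with a list median of 0.22. Of all tested genes 7.77% were called higher. Lipa, lysosomal acid lipase, rose by 1.04 log2 units (SE 0.16, limma adjusted p = 0.00035), and Ppt1, a thioesterase, by 0.77 (SE 0.09, limma adjusted p = 4.8e-05). The remaining 22 included genes near 0, such as Gaa and Arsa (0.05 and 0.04), named after their values were seen. Against mock 6 of the 34 were called higher, with a list median of 0.19, where 6.84% of all tested genes were. A difference between this list and the cathepsins was not tested.

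**Figure D5:**
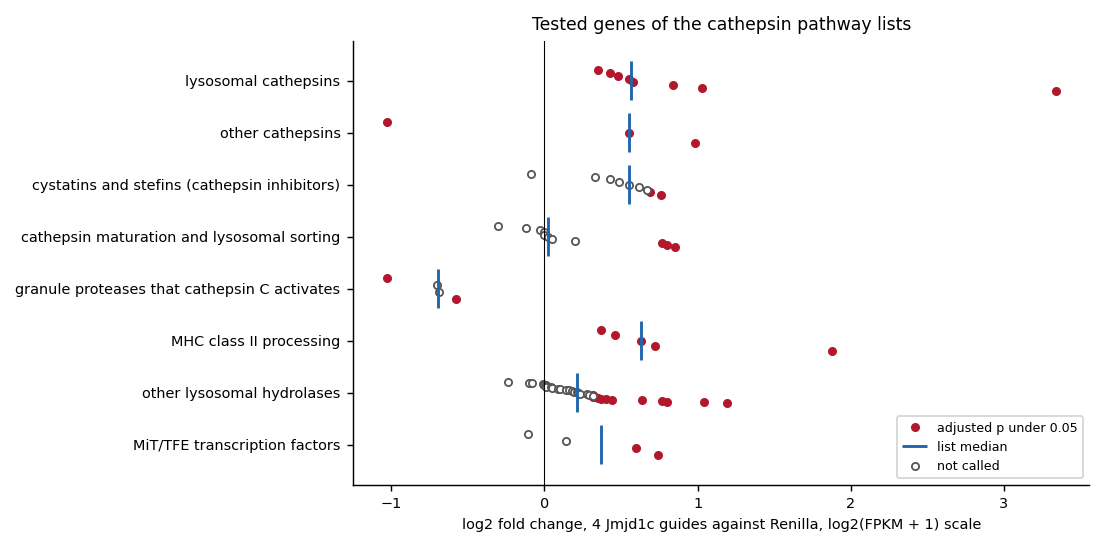
Log2 fold change of every tested gene in the cathepsin list and 7 pathway lists, 4 Jmjd1c guides against Renilla, with filled points for called genes and a bar at each list median. The 8 cathepsins lie between 0.35 and 3.34, the 4 granule proteases between -1.03 and -0.58, and the 34 other hydrolases have a median of 0.22.

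The MiT/TFE family of transcription factors drives many lysosomal genes through the sequence CACGTG, and of its 4 genes Tfeb and Mitf were called higher. The share called higher over all tested genes was 7.77%. Tfeb was at 10.9 ± 1.76 FPKM with guides and 6.08 ± 0.445 in Renilla (log2 fold change 0.74, SE 0.11, limma adjusted p = 0.00027), with no overlap between 8.40 to 15.0 FPKM in guides and 5.64 to 6.53 in Renilla. Mitf was at 1.58 ± 0.322 FPKM with guides and 0.702 ± 0.268 in Renilla (0.60, SE 0.12, limma adjusted p = 0.0040), and passed the filter on low values only through the guide libraries. The count called in this family is therefore no result to set against the share of all tested genes. Tfe3 had a log2 fold change of 0.14 (limma adjusted p = 0.71) and Tfec -0.11 (limma adjusted p = 0.69).

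Because all 8 cathepsins rose against Renilla, though unequally, the promoter windows held for 6 of them were searched for CACGTG on both strands. RefSeq windows on GRCm38.p6 were used, and none was given for Ctsb and Ctsh. Ctsd had 2 matches, Ctsl 1, and Ctsa 2 in the later of its 2 windows, while Ctss, Ctsc and Ctsz had none. CACGTG occurs in 7.15% of all 32851 windows. The windows of Ctsd (chr7:142387778-142388077, minus strand) and Ctsa (chr2:164833523-164833822, plus strand), which hold 2 matches each, are shown with CACGTG in capitals.
Ctsd: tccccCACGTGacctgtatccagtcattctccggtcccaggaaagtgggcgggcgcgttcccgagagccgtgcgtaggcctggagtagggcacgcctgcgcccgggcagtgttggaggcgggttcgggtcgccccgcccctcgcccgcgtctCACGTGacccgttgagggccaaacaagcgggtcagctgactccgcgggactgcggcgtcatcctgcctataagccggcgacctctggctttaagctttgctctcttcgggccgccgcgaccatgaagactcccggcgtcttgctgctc
Ctsa: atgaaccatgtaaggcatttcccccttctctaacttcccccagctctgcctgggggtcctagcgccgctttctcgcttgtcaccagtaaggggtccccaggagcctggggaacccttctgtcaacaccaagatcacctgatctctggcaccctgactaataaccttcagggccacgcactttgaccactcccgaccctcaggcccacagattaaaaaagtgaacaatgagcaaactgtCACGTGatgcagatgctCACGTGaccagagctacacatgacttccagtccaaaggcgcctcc
In Ctsd the matches begin 245 and 98 bases before the start, and in Ctsa 12 bases before it and at base 6 after it. Ctsc had matches to GAGGAAGT and to TTCNNNGAA, which is present in 8.3% of windows, and no member with a window had TGANTCA (7.81%). A match describes letters, not binding, and the part of Tfeb or Mitf in the levels of the cathepsins was not tested.

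Markers of other cell types moved with the guides as well. In the bulk libraries a change in the share of cells and a change in RNA per cell cannot be told apart. Of 16 monocyte and macrophage markers, 15 were in the table and 10 tested, 6 of them called higher and none lower, with a median log2 fold change of 0.85. Their summed level was 975.5 to 1475.8 FPKM with guides, 987.0 to 1118.1 in Renilla and 966.6 to 1021.6 in mock. Ly6c2, the largest part of that sum, was at 653.6 ± 124.3 FPKM with guides and 767.8 ± 60.8 in Renilla. Its log2 fold change of -0.25 was not called, nor were those of Fcgr1 (-0.32), Cd14 (0.30) and Ccr2 (0.21). Over all tested genes 7.77% were called higher. Csf1r, the receptor for macrophage colony-stimulating factor, was at 11.8 ± 2.76 FPKM with guides and 2.25 ± 0.177 in Renilla (log2 fold change 1.94, SE 0.17, limma adjusted p = 2.3e-06). Irf8, a transcription factor of monocytes and dendritic cells, was at 43.3 ± 17.6 FPKM with guides and 11.0 ± 0.437 in Renilla (1.81, SE 0.19, limma adjusted p = 1.2e-05). Macrophage markers Mrc1 and C1qb stayed under 0.1 FPKM in every library.

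Among all tested genes 7.77% were called higher and 3.21% lower. Of 9 tested neutrophil markers 2 were called higher, Ngp and Mmp8, and Mmp8 passed the filter only through the guide libraries (4.03 ± 1.35 FPKM with guides, 0.278 ± 0.0892 in Renilla). The count of 2 is therefore no result to set against the share of all tested genes. The sum of the list ran from 123.9 to 956.2 FPKM with guides, 121.6 to 209.5 in Renilla and 109.5 to 137.8 in mock. Among 9 progenitor and leukaemia markers 1 was called higher and 2 lower, summing to 2005.6 to 4670.0 FPKM with guides, 4064.0 to 4478.0 in Renilla and 4289.6 to 4382.0 in mock, and Mpo, Elane and Prtn3 make up most of that sum. Mpo and Prtn3 were the 2 called lower and Ptprc the 1 called higher. Cd34 had means of 216.4 FPKM with guides and 134.7 in Renilla without a call, and Meis1 34.8 with guides and 35.3 in Renilla. Of 7 dendritic cell markers only Itgax was tested, which passed the filter only through the guide libraries (1.40 ± 0.647 FPKM with guides, 0.223 ± 0.0574 in Renilla), so its call says nothing of the list. The list summed to 0.828 to 3.33 FPKM with guides, 0.803 to 0.931 in Renilla and 0.765 to 1.06 in mock. Lymphoid markers summed to 10.9 to 23.3 FPKM with guides, 15.7 to 23.0 in Renilla and 17.3 to 20.0 in mock, and 1 of 3 tested was called lower, Nkg7. No tested marker was called for mast cells, basophils and eosinophils (0 of 6), the erythroid lineage (0 of 2), megakaryocytes (0 of 1) or stromal and endothelial cells (0 of 2). The part of these markers in the changes of the cathepsins was not tested.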

How the data were processed

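The authors deposited FPKM for 18 libraries, with 23899 genes in 1 table. Per the submitters' processing notes, bcl2fastq 2.22.0.422, Salmon 0.13.0, DESeq2 1.22.1, R 3.5.3 and mm10 were used. Per the labels' protocols, poly(A) RNA was purified from TRIzol extracts for a directional library kit. Separate tables for 15 libraries differ by at most 3.3e-06 FPKM. FPKM are not counts, so count tests were not used here. The test was limma-trend (R 4.3.3, limma 3.58.1) on log2(FPKM + 1) over the 11550 genes that averaged 1 FPKM or more, fitted with a mean for each of the 6 groups and no covariate, with Benjamini-Hochberg adjustment over all of them. The 4 guides together have equal weight. Other software was Python 3.11.15 (numpy 2.4.6, matplotlib 3.10.9, pandas 2.3.3).

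Library depth is an estimate: in 1480 genes with a single transcript of 2000 bases or more, FPKM multiplied by length moves in steps of 1 read, and 89.5 to 94.4% of low values were within 0.1 of a whole read. GENCODE vM21 (GRCm38) placed 99.03% of symbols. On simulated data with 200 of 11550 genes changed, the comparison of the 4 guides with Renilla called 44.0% of the genes changed by 0.5 log2 units, 94.5% of those changed by 1 and 97.5% of those changed by 2.

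The members, 7 pathway lists and 9 marker lists (progenitor and leukaemia, monocyte and macrophage, neutrophil, dendritic, mast cell with basophil and eosinophil, lymphoid, erythroid, megakaryocyte, stromal and endothelial) were chosen with earlier results of these data known. Named are the members, the other cathepsins, up to 4 genes a pathway list with the smallest p against Renilla, and the 5 genes most like Ctss. Genes outside this rule are said to be so or serve as markers. Some genes that the rule names are not reported here.

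Same-numbered libraries were checked for pairing by the correlation of their deviations from group means. In 4 of 15 pairs of groups all 3 correlations exceeded 0.1: Renilla and mock (0.156 to 0.295), e12.4 and Renilla (0.236 to 0.331), e12.4 and mock (0.204 to 0.234), and e12.3 and e21.1 (0.452 to 0.763). Deviations cancel within a group, so the 3 correlations of a pair are not independent. The pair of e12.3 and e21.1 holds both libraries that stand apart. Alternatives were pseudocount 0.1, no filter, a filter of 5 FPKM in 3 libraries, only the groups compared, the replicate number as a block, upper-quartile scaling, each library, guide or both libraries that stand apart left out, and Renilla with mock as control.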

Additional observations from a re-analysis of the deposited data

How the results depend on the processing

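Ctss, Ctsb, Ctsd, Ctsh and Ctsc were called higher with the 4 guides against Renilla in every alternative run. The count of 8 called cathepsins was unchanged in the 12 alternatives that do not leave out 1 library, and was 6 to 8 when 1 library was left out. All genes called higher with the 4 guides against Renilla numbered 698 to 1268 in the former and 633 to 1011 in the latter. With 1 library left out the counts were 3 to 5 for e12.3, 4 to 6 for e12.4, 4 to 6 for e20.1, 6 to 8 for e21.1 and 4 to 7 for the 4 guides against mock, and 0 for Renilla against mock and between guides. Genes called higher then numbered 241 to 472 of 11550 for e12.3, 437 to 773 for e12.4 and 358 to 629 for e20.1. They were 612 to 915 for e21.1, 501 to 907 for the 4 guides against mock and at most 1 for the rest. With only the groups compared in the model, 1 cathepsin was called for e12.3, 3 for e20.1 and 3 for e21.1. For e12.4 only Ctsa lost its call (limma adjusted p = 0.055). Genes called higher in that setting numbered 77 of 11550 for e12.3, 390 for e20.1, 312 for e21.1 and 859 for e12.4. Why the guides differ in this was not tested. With the replicate number as a block, 8 cathepsins were called for the 4 guides, 5 for e12.3 and 6 for e12.4. Of 11550 tested genes, 1138, 486 and 834 were called higher in these. Ctsz with e12.3 gained a call (limma adjusted p = 0.042), and so did Cstb with the 4 guides (limma adjusted p = 0.035). The block changed no cathepsin call for e12.4 or for Renilla against mock, the comparisons in which same-numbered libraries varied together. Of 2968 other values, 2833 kept their side of the threshold, 95 lost a call and 37 gained one. The other 3, none of them called, changed sign by more than 1 SE. Smaller changes of sign in values without a call are counted as kept. Over the settings that leave out 1 library, Tfe3 ranged from -0.11 to 0.39 and, in Renilla against mock, Ctsd from -0.10 to 0.11 and Ctsz from -0.29 to 0.01. The cause was not tested.

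Of all tested genes, 1268 were called with the 4 guides against Renilla, but 2085 without the 2 libraries that stand apart, 814 without Renilla replicate 1 and 828 without replicate 2. With Renilla and mock together as control it was 2109. Genes called lower numbered 371, but 236 with only the groups compared, 671 in the block, 187 without guide e12.4 and 841 with Renilla and mock together. Leaving out 1 mock library gave 580 to 649 against mock (1040 with all), 1 e12.4 library 491 to 531 for e12.4, e20.1 replicate 3 436 for e20.1 and Renilla replicate 2 400 for e20.1. Without those 2 libraries 709 genes were called for e12.3 (370 with them), 1542 for e12.4 (819), 1290 for e20.1 (656) and 1878 for the 4 guides against mock (1040). In the block, 989 were called for e20.1 and 1652 (1098 without it) for e21.1, and with only the groups compared 80 for e12.3, 431 for e20.1 and 332 for e21.1. For e12.4 the setting with only the groups compared gave 1156. Depth, estimated at 20.7 M reads or more, was not varied.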
